A study of Mus musculus with 34 samples.

Results

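Transcripts of 8 genes of the Nodal pathway were followed in mouse embryonic stem (ES) cells that lack 1 or all 3 MTA proteins, the subunits that hold the nucleosome remodelling and deacetylation (NuRD) complex together. The genes were taken by name from the counts of every library: Nodal, its co-receptor Tdgf1, the receptors Acvr1b and Acvr2b, the transcription partner Foxh1, and the inhibitors Lefty1, Lefty2 and Smad7. They are 8 of 48709 genes counted in 16 libraries of Control and Mta123KO cells, and 8 of 22018 genes counted in 18 libraries of single-mutant and parent cells. All 8 were present in both sets of files and passed the filter on low counts in every comparison.

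The first set compares Control with Mta123KO, which lacks Mta1, Mta2 and Mta3. Each genotype has 4 libraries labelled 2iL and 4 labelled 48 h, and the library numbers give 2 lines per genotype with 2 libraries each. In 2iL, Mek and Gsk3 inhibitors and the cytokine LIF keep ES cells self-renewing, and 48 h means that time in N2B27 medium without inhibitors and LIF. The labels give 129/Ola as the strain of all of these cells. The Control lines have intact Mta2, floxed Mta3 and only 1 functional copy of Mta1. Mta123KO was made by targeting Mta2 in Mta1-null, Mta3-floxed cells and then deleting Mta3 with transfected Cre. The second set, all in 2iL, holds 3 libraries each of Mta1_del_del, Mta2_KO and Mta3_del_del and 3 of each comparison line, which are Mta1_flox_flox, Mta2_WT and Mta3_flox_flox. The Mta1 and Mta3 deletions were made with Cre in the floxed parents, whereas Mta2_KO came from 1 primary line set beside wild-type cells.

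Nodal is a secreted ligand of the TGF-beta family that binds type I and type II activin receptors together with an EGF-CFC co-receptor, and the receptors phosphorylate Smad2 and Smad3, which enter the nucleus with Smad4 and act with partners such as Foxh1. Lefty1 and Lefty2 are secreted antagonists and Smad7 an intracellular one, and all of these inhibitors are themselves induced by the pathway. In the mouse embryo Nodal signalling patterns the epiblast and specifies mesendoderm, and ES cells make Nodal, Tdgf1 and the Lefty proteins while they are still undifferentiated.

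The culture labels were set against marker genes before any change with culture was measured. The summed level of 8 naive pluripotency markers (Esrrb, Nanog, Klf4, Zfp42, Tbx3, Klf2, Prdm14 and Tfcp2l1) was 157 to 244 CPM (reads of a gene per 1000000 reads of its library, after scaling) in Control libraries labelled 2iL and 418 to 544 CPM in Mta123KO libraries labelled 2iL. It was 3677 to 4053 CPM in Control libraries labelled 48 h, 1911 to 2835 CPM in Mta123KO libraries labelled 48 h, and 3223 to 5817 CPM in the 18 libraries of the second set, which are all labelled 2iL. The 6 formative or primed epiblast markers ran the other way, with sums of 1242 to 1824 CPM in Control labelled 2iL against 105 to 121 CPM in Control labelled 48 h. The markers therefore go against the culture labels of the first set, and the names under which its 16 libraries were deposited give the opposite culture too. Groups are called here as they are labelled. If the labels were exchanged, each change with culture given below would turn its sign, and the comparison of Mta123KO with Control under one label would become the one under the other.

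**Figure D1:**
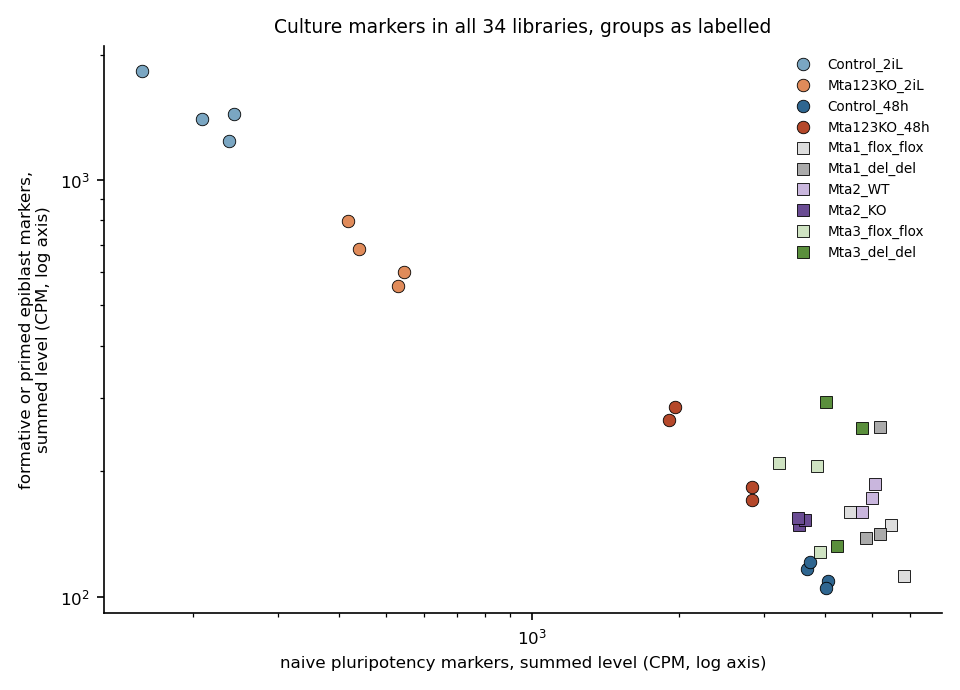
Each point is 1 of the 34 libraries, with the summed CPM of 8 naive pluripotency markers on the x axis and of 6 formative or primed epiblast markers on the y axis, both on log axes; circles are the Control and Mta123KO set and squares the single-mutant set. Control libraries labelled 2iL lie at 157 to 244 CPM on the x axis, whereas Control libraries labelled 48 h lie at 3677 to 4053 CPM, within the range of the 2iL libraries of the other set.

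Mta2 and Mta3 followed the genotype labels in every library. Mta2 was counted at 111 to 201 CPM in Control and at 4.71 to 10.4 CPM in Mta123KO, and at 9.23 to 11.9 CPM in Mta2_KO against 231 to 247 CPM in Mta2_WT. Mta1 and Mta3 kept part of their reads, at 15.5 to 30.0 and 9.51 to 23.8 CPM in Mta123KO against 23.4 to 48.6 and 36.4 to 74.9 CPM in Control. The Mta1 ranges overlapped, so Mta1 checks these labels only weakly. Mta3 was at 9.65 to 12.8 CPM in Mta3_del_del against 60.6 to 70.4 CPM in its parent, and Mta1 at 38.5 to 48.0 CPM in Mta1_del_del against 69.0 to 105 CPM. Mta1 was lower still in Mta2_WT, at 18.6 to 26.5 CPM, and was at 33.4 to 39.1 CPM in Mta2_KO. The Mta1 level thus did not follow the Mta1 genotype across the whole second set. Libraries held 37855790 to 57602285 reads counted in genes in the first set and 13105820 to 40613585 in the second, and the lowest count of any of the 8 genes was 48 reads, for Lefty1. Replicates differed by more than counting error, since chi-square statistics between replicates were at least 6.32 times their degrees of freedom in the first set and 4.41 times in the second. Nothing in the labels says that the 2 libraries of a line were separate cultures. If they were not, p-values over libraries are too small, and a fit with the libraries of a line summed is therefore given where it ends a call. RNA from fewer cells of a type and less RNA per cell cannot be told apart in bulk samples.

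Levels per kilobase of exon put the co-receptor Tdgf1 first in every group of either set except Mta123KO labelled 2iL, where Foxh1 and Nodal stood above it. In Control labelled 2iL, Tdgf1 stood at 99.6 ± 3.36 CPM per kb (SD, n = 4), Foxh1 at 58.6 ± 1.74, Lefty1 at 27.9 ± 10.3, Nodal at 15.4 ± 2.37, Smad7 at 7.43 ± 0.823, Lefty2 at 7.20 ± 2.06, and the receptors Acvr2b and Acvr1b at 5.17 ± 0.405 and 5.15 ± 0.397. Both receptors were thus the lowest of the 8 per unit length, and their means differed by less than their spread. Lefty1 stood above Lefty2 under the 2iL label of the first set, at 27.9 against 7.20 CPM per kb in Control. The order was the opposite in Control labelled 48 h, at 9.30 ± 3.63 for Lefty1 against 19.3 ± 9.12 for Lefty2, and in all 6 groups of the second set.

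Positions are those of the GENCODE annotation of the GRCm38 mouse genome and span the whole gene. Lefty2 (1:180893108-180899103, plus strand) and Lefty1 (1:180935022-180938400, plus strand) are neighbours on chromosome 1, and Tdgf1 (9:110939603-110946158, minus strand) and Acvr2b (9:119402118-119434995, plus strand) share chromosome 9. Nodal is at 10:61417972-61425338 on the plus strand, Foxh1 at 15:76668225-76669948 on the minus strand and Acvr1b at 15:101174067-101213684 on the plus strand. The Lefty transcripts are close copies, and 17.9% of the 50-base windows of Lefty1 also occur in Lefty2, so reads from these windows could be counted for either or dropped.

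Tdgf1 has a processed pseudogene, Tdgf1-ps1 (16:3730510-3731022, plus strand), that was counted at 44.9% to 67.7% of the Tdgf1 level in the 16 libraries of the first set. It matches the Tdgf1 coding sequence at all but 7 of 513 bases, and 50.9% of its 50-base windows are found unchanged in the Tdgf1 transcript. Coding bases 421 to 480 are shown for both because they hold 3 of the 7 differences, with the differing base in capitals; they lie at chr9:110940740-110940799 (minus strand) within a coding exon of Tdgf1 and at chr16:3730930-3730989 (plus strand) in the pseudogene, in GENCODE transcripts of GRCm38.
Tdgf1: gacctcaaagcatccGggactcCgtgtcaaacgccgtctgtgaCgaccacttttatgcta
Tdgf1-ps1: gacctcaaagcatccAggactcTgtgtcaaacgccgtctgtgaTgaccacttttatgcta
Reads over such stretches without a differing base cannot be assigned to either locus from sequence alone, and values for Tdgf1 are given with this uncertainty. Tdgf1-ps1 was not among the genes in the files of the second set.

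The sequences just before the transcription start were compared because Nodal, Tdgf1 and Acvr1b gave the plainest differences in the sections that follow, in different directions. RefSeq entries on GRCm38.p6 were at hand for 4 of the 8 genes (Nodal, Tdgf1, Acvr1b and Acvr2b) and not for Lefty1, Lefty2, Smad7 and Foxh1. The 250 bases before the start are given 5′ to 3′ on the gene's strand with each CG dinucleotide in capitals, for Nodal at chr10:61417722-61417971 (plus strand), Tdgf1 at chr9:110946159-110946408 (minus strand) and Acvr1b at chr15:101173822-101174071 (plus strand).
Nodal: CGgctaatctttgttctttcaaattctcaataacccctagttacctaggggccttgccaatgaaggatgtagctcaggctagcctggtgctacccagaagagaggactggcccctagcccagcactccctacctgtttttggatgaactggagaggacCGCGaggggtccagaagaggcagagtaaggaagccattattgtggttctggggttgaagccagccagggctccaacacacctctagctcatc
Tdgf1: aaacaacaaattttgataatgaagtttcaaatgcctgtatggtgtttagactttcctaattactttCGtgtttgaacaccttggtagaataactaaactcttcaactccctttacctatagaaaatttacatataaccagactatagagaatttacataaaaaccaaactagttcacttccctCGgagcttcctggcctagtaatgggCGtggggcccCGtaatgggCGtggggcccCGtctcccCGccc
Acvr1b: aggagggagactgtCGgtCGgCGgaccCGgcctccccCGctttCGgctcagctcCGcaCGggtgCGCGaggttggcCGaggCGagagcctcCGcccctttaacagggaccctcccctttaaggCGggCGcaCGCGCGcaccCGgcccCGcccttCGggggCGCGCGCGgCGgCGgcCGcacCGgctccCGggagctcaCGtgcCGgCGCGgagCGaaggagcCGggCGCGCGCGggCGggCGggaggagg
Nodal held 3 CG dinucleotides and Tdgf1 7, beside a median of 6 over 32851 such windows, whereas Acvr2b held 24 and Acvr1b 42. Acvr1b exceeded 99.1% of all windows in this count, and Nodal exceeded 29.0%. The letters CAGAC, a half-site bound by Smad proteins, were found on either strand once in Tdgf1 and once in Acvr2b and in neither Nodal nor Acvr1b, beside 42.2% of all windows. The Foxh1-type letters AATNCACA were in none of these 4 windows and in 3.18% of all.

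With these limits, the culture comparison in Control gave a call for each of the 8 genes, 4 in each direction, while Mta123KO gave 4. Counts were tested in edgeR across all genes and a gene was called at a Benjamini-Hochberg adjusted p under 0.05. In Control labelled 48 h against labelled 2iL, Nodal, Lefty2, Smad7 and Acvr1b were higher and Lefty1, Tdgf1, Acvr2b and Foxh1 lower, among all genes of which 29.5% were called higher and 29.0% lower. In Mta123KO the same comparison called 3 of the 8 higher (Tdgf1, Smad7 and Acvr1b) and 1 lower (Foxh1), beside 12.4% and 10% of all genes. This fit takes no account of line, although same-numbered libraries share a line across cultures. With replicate number as a block, Nodal and Lefty2 were called higher in Mta123KO as well. Calls over all genes then went from 4817 to 9144, so the lower count in Mta123KO does not by itself show a weaker response to culture. Mta123KO against Control under the 2iL label called 2 higher (Nodal and Acvr1b) and 4 lower (Tdgf1, Smad7, Acvr2b and Foxh1), beside 27.1% and 24.2% of all genes. Under the 48 h label it called 3 higher (Acvr1b, Acvr2b and Foxh1) and 1 lower (Smad7), beside 26.6% and 23.4%. The change with culture itself differed between the genotypes for 4 genes, more positive in Mta123KO for Tdgf1, Acvr2b and Foxh1 and less positive for Nodal, beside 12.5% and 10.6% of all genes called in these directions. The comparisons share libraries, so their counts are not independent of each other.

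**Figure D2:**
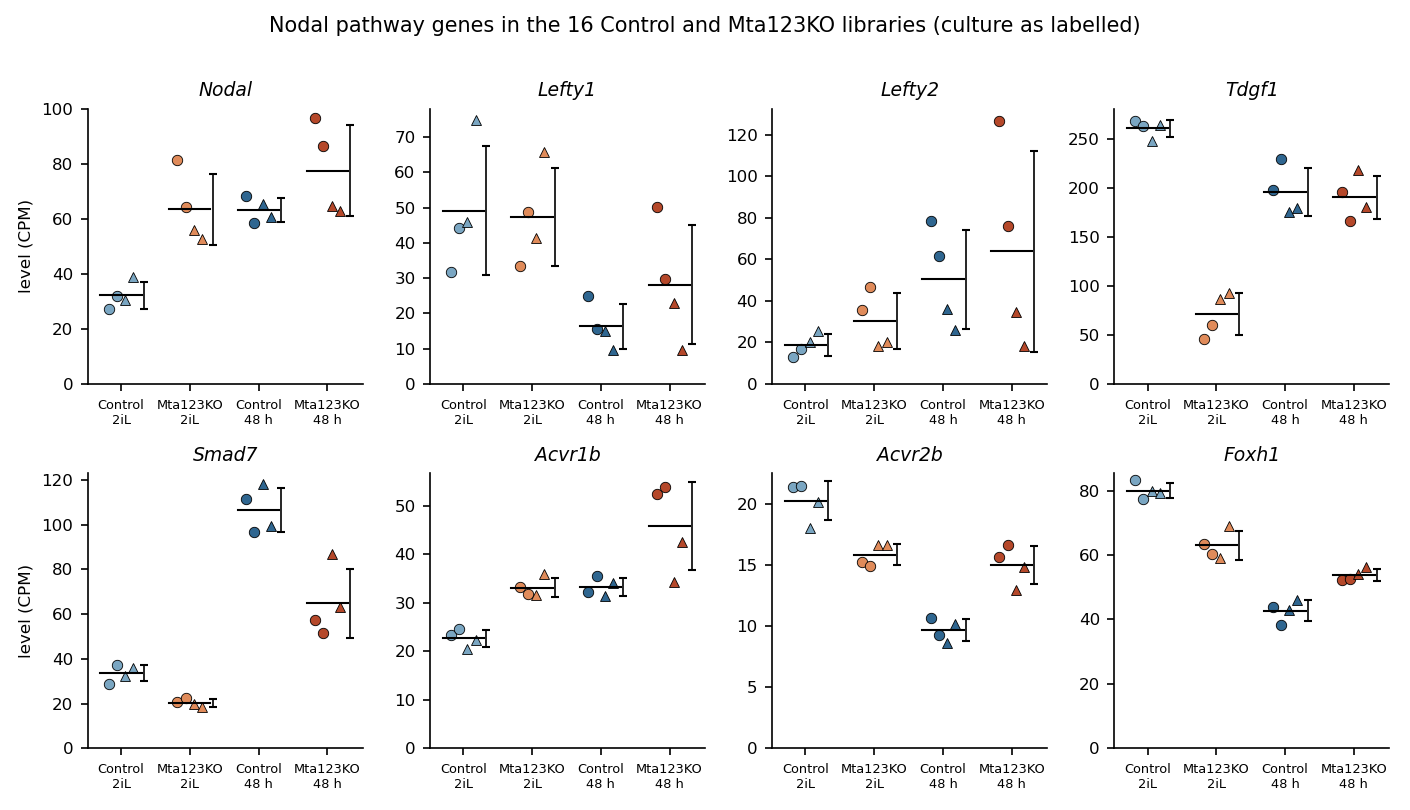
Levels in CPM (y axis, from 0) of the 8 genes in the 16 Control and Mta123KO libraries, with circles for line 1, triangles for line 2, horizontal bars for the group mean and error bars for 1 SD (n = 4). Tdgf1 in Mta123KO labelled 2iL lies at 46.3 to 92.7 CPM, below all other groups, and the Lefty2 libraries of Mta123KO labelled 48 h spread from 18.3 to 127 CPM.

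Nodal, the ligand, was measured at 27.4, 32.0, 30.45 and 39.1 CPM in the 4 Control libraries labelled 2iL and at 81.4, 64.4, 56.0 and 52.7 CPM in the 4 Mta123KO libraries labelled 2iL. In libraries labelled 48 h it stood at 68.4, 58.5, 65.5 and 60.8 CPM in Control and at 96.7, 86.5, 64.7 and 62.9 CPM in Mta123KO. Control labelled 2iL thus stood alone at the low end and did not overlap any other group, while the other groups overlapped. Under the 2iL label Nodal was 2.00-fold higher in Mta123KO than in Control (log2 fold change 1.0, standard error 0.16, adjusted p = 0.000743). In Control it was 1.98-fold higher under the 48 h label than under the 2iL label (0.99, standard error 0.10, adjusted p = 9.59e-06). Neither the comparison of genotypes under the 48 h label (0.31, standard error 0.14, adjusted p = 0.0997) nor that of cultures in Mta123KO (0.28, standard error 0.18, adjusted p = 0.306) passed. Libraries of a line pair across cultures, and in a fit with replicate number as a blocking term the culture difference in Mta123KO was called at the same size, 0.28 with an adjusted p of 0.00565. The 2 changes with culture differed by -0.68 (standard error 0.22, adjusted p = 0.0352), a call that was lost on leaving out any of 9 of the 16 libraries, including 3 of the 4 Control libraries labelled 2iL, without which the difference was -0.61 to -0.68 (adjusted p 0.0596 to 0.0759). It was also lost with libraries of a line summed (-0.70, adjusted p = 0.275) and with spike-in scaling (-0.93, adjusted p = 0.0544). Leaving out Control line 1 or Control line 2 ended it as well (-0.57 and -0.80, adjusted p = 0.278 and 0.103).

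In Mta123KO, the 2 lines stood apart in Nodal. Line 1 averaged 72.9 CPM under the 2iL label and 91.6 CPM under the 48 h label, and line 2 averaged 54.3 and 63.8 CPM. Without line 2, the genotype difference under the 48 h label was 0.54 and was called (adjusted p = 0.000557).

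Tdgf1 (also called Cripto), the membrane-bound co-receptor that Nodal needs, was the gene with the most pronounced loss among the 8 in Mta123KO under the 2iL label. Control labelled 2iL gave 268, 263, 248 and 265 CPM, and Mta123KO labelled 2iL gave 46.3, 60.6, 86.3 and 92.7 CPM. Control labelled 48 h gave 198.5, 230.2, 176 and 180.1 CPM, and Mta123KO labelled 48 h gave 196.5, 166, 218.5 and 181 CPM. Control labelled 2iL was highest with no overlap, Mta123KO labelled 2iL lowest with no overlap, and the libraries labelled 48 h of both genotypes were intermingled. Under the 2iL label Tdgf1 fell 3.61-fold in Mta123KO (log2 fold change -1.85, standard error 0.20, adjusted p = 9.51e-05), but under the 48 h label the difference was -0.03 (standard error 0.11, adjusted p = 0.823). From 2iL to 48 h as labelled it was 1.32-fold lower in Control (-0.40, standard error 0.08, adjusted p = 0.00142) and 2.66-fold higher in Mta123KO (1.41, standard error 0.21, adjusted p = 0.00247). The difference between these changes was 1.83 (standard error 0.24, adjusted p = 5.49e-05).

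Counts of Tdgf1-ps1 moved alongside, at 145 to 159 CPM in Control and 23.0 to 49.2 CPM in Mta123KO under the 2iL label. Scaling by the spike-in RNAs left the fall in Mta123KO under the 2iL label and the interaction called, but not the small decrease with culture in Control, which was then -0.24 (adjusted p = 0.293). In 1 fit of all 16 libraries that decrease was -0.41 and not called either (adjusted p = 0.0510). With libraries of a line summed, the rise with culture in Mta123KO kept its size of 1.41 and was no longer called (adjusted p = 0.186).

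Acvr1b, the type I receptor (ALK4), was higher in Mta123KO under both labels. It ranged from 20.6 to 24.7 CPM in Control and from 31.7 to 35.9 CPM in Mta123KO labelled 2iL, and from 31.5 to 35.5 and 34.4 to 54.0 CPM labelled 48 h. The genotypes did not overlap under the 2iL label (log2 fold change 0.56, standard error 0.08, adjusted p = 0.000397) but did under the 48 h label (0.47, standard error 0.14, adjusted p = 0.0181). It was also higher under the 48 h label than under the 2iL label, by 0.57 in Control (standard error 0.07, adjusted p = 4.01e-05) and by 0.46 in Mta123KO (standard error 0.14, adjusted p = 0.0456). The genotype call under the 48 h label was lost without line 1 of Mta123KO, where the difference was 0.22 (adjusted p = 0.0940). It was also lost without Control line 1 (0.48, adjusted p = 0.0944) and without Control line 2 (0.44, adjusted p = 0.121). Leaving out Control library 1_1 or 2_1 ended it too (0.44 in both cases, adjusted p = 0.0505 and 0.0525), as did spike-in scaling, at 0.31 (adjusted p = 0.272). The culture call in Mta123KO was lost on leaving out any of 7 of the 8 libraries (0.38 to 0.50, adjusted p 0.0669 to 0.115) and with spike-in scaling (0.45, adjusted p = 0.141). Without Mta123KO line 1 the culture change was 0.17 and not called (adjusted p = 0.198). Without the filter on low counts it was 0.46 and not called (adjusted p = 0.0612). With libraries of a line summed, both of these calls were lost at 0.47 (adjusted p = 0.133 for genotype and 0.389 for culture).

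Acvr2b, a type II receptor, and Foxh1, the forkhead partner of Smad2, shared a pattern. Acvr2b ranged from 18.1 to 21.5 CPM in Control and 14.95 to 16.7 CPM in Mta123KO labelled 2iL, and from 8.62 to 10.7 and 13.0 to 16.7 CPM labelled 48 h. Foxh1 ranged from 77.5 to 83.2 and 59.2 to 69.1 CPM labelled 2iL, and from 38.4 to 46.0 and 52.2 to 56.4 CPM labelled 48 h, again for Control and Mta123KO. Control held both the highest and the lowest group of each gene, and in neither gene did the genotypes overlap under either label. Acvr2b in Mta123KO was lower under the 2iL label (-0.34, standard error 0.08, adjusted p = 0.00814) and higher under the 48 h label (0.64, standard error 0.11, adjusted p = 0.00126). Foxh1 likewise was lower under the 2iL label (-0.33, standard error 0.06, adjusted p = 0.00260) and higher under the 48 h label (0.34, standard error 0.07, adjusted p = 0.00383).

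The change of these genes with culture was larger in Control. Acvr2b fell by 1.05 on the log2 scale in Control (standard error 0.09, adjusted p = 2.59e-06), while its difference in Mta123KO was -0.08 (standard error 0.10, adjusted p = 0.595). The 2 Mta123KO lines went opposite ways, from 15.1 to 16.2 CPM in line 1 and from 16.7 to 13.9 CPM in line 2. Without Mta123KO line 1 the fall of Acvr2b was called, at -0.28 (adjusted p = 0.0398). Foxh1 fell by 0.89 in Control (standard error 0.06, adjusted p = 5.28e-07) and by 0.23 in Mta123KO (standard error 0.07, adjusted p = 0.0443), a call that was lost on leaving out any 1 of the 8 libraries (adjusted p 0.0581 to 0.108). The differences between genotypes in these changes were 0.99 for Acvr2b (adjusted p = 8.22e-05) and 0.68 for Foxh1 (adjusted p = 8.70e-05). With libraries of a line summed, the genotype calls of both genes under both labels were lost (adjusted p 0.0559 to 0.157), as were the interaction of Acvr2b (0.98, adjusted p = 0.0558) and the culture change of Foxh1 in Mta123KO (-0.23, adjusted p = 0.496). Spike-in scaling ended both genotype calls of Acvr2b, at -0.31 under the 2iL label (adjusted p = 0.0699) and 0.46 under the 48 h label (adjusted p = 0.105). The Acvr2b call under the 2iL label was also lost without Control line 1 (-0.26, adjusted p = 0.103). The results with spike-in scaling for Foxh1 were mixed. That scaling left the Foxh1 calls with culture in Control and with genotype under the 2iL label and ended the others, at 0.15 for genotype under the 48 h label (adjusted p = 0.599), -0.25 for culture in Mta123KO (adjusted p = 0.246) and 0.46 for the interaction (adjusted p = 0.175).

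Smad7 (18:75367529-75395935, plus strand), the inhibitory Smad that blocks the receptors, fell in Mta123KO under both labels and by nearly the same factor. It was measured at 28.9, 37.1, 32.4 and 36.1 CPM in Control and 20.7, 22.4, 19.8 and 18.3 CPM in Mta123KO labelled 2iL. Under the 48 h label, Control gave 111, 96.9, 118 and 99.5 CPM and Mta123KO 57.5, 51.7, 86.9 and 63.1 CPM. All 4 groups were free of overlap, in the order Control 48 h, Mta123KO 48 h, Control 2iL and Mta123KO 2iL as labelled. The log2 fold change with genotype was -0.71 under either label (standard errors 0.10 and 0.15, adjusted p = 0.000422 and 0.00398). With culture it was 1.68 in Control (standard error 0.09, adjusted p = 7.75e-08) and 1.67 in Mta123KO (standard error 0.16, adjusted p = 0.000330). The interaction was 0.01 (standard error 0.19, adjusted p = 0.971). Among the 8 genes Smad7 alone was lower in Mta123KO under both labels with a call in each, and both calls held with libraries of a line summed and with spike-in scaling. Its change with culture in Mta123KO lost the call with libraries of a line summed, at 1.66 (adjusted p = 0.143).

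Lefty1 and Lefty2 changed in opposite directions with culture in Control and varied widely between libraries. Lefty1 was at 31.8, 44.2, 45.8 and 74.7 CPM in Control and 33.4, 48.8, 41.4 and 65.8 CPM in Mta123KO labelled 2iL, given in the order of library numbers 1_1, 1_2, 2_1 and 2_2. In the same order, under the 48 h label it was at 25.05, 15.5, 15.1 and 9.67 CPM in Control and 50.04, 29.8, 23.05 and 9.60 CPM in Mta123KO. The libraries numbered 2_2 were the highest of each group labelled 2iL and the lowest of each group labelled 48 h, and those numbered 1_1 the reverse. In Control Lefty1 was 2.96-fold lower under the 48 h label, with no overlap (log2 fold change -1.57, standard error 0.29, adjusted p = 0.000832).

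No genotype comparison of Lefty1 passed, with differences of -0.04 (standard error 0.27, adjusted p = 0.924) under the 2iL label and 0.79 (standard error 0.45, adjusted p = 0.171) under the 48 h label, nor did its change with culture in Mta123KO, -0.76 (standard error 0.43, adjusted p = 0.253). The difference under the 48 h label was called without Mta123KO line 2, at 1.29 (adjusted p = 0.00649), and without library 2_2 of Mta123KO, at 1.08 (adjusted p = 0.0266). Without Mta123KO line 1, Lefty1 was lower under the 48 h label in the remaining mutant line as well, by a log2 fold change of -1.75 (adjusted p = 0.000657).

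Lefty2 was at 12.8, 16.7, 20.4 and 25.4 CPM in Control and 35.8, 46.6, 18.1 and 20.1 CPM in Mta123KO labelled 2iL. Under the 48 h label it was at 78.3, 61.4, 36.1 and 26.0 CPM in Control and 127, 76.1, 34.8 and 18.3 CPM in Mta123KO. The 2 Mta123KO lines lay on opposite sides of the Control mean under the 48 h label, line 1 above and line 2 below, and genotypes overlapped under both labels. The 2 Control lines split in the same order under that label, with means of 69.8 CPM for line 1 and 31.0 CPM for line 2. In Control Lefty2 was 2.71-fold higher under the 48 h label (log2 fold change 1.44, standard error 0.32, adjusted p = 0.00249). The other comparisons did not pass, at 0.70 (standard error 0.32, adjusted p = 0.0989) for genotype under the 2iL label, 0.35 (standard error 0.56, adjusted p = 0.623) under the 48 h label and 1.08 (standard error 0.57, adjusted p = 0.217) for culture in Mta123KO. The replicate block called the last at 0.84 (adjusted p = 0.0346). Without line 2, Lefty2 was called higher in Mta123KO than in Control under both labels, at 1.14 and 1.02 (adjusted p = 0.00152 and 0.0437).

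**Figure D3:**
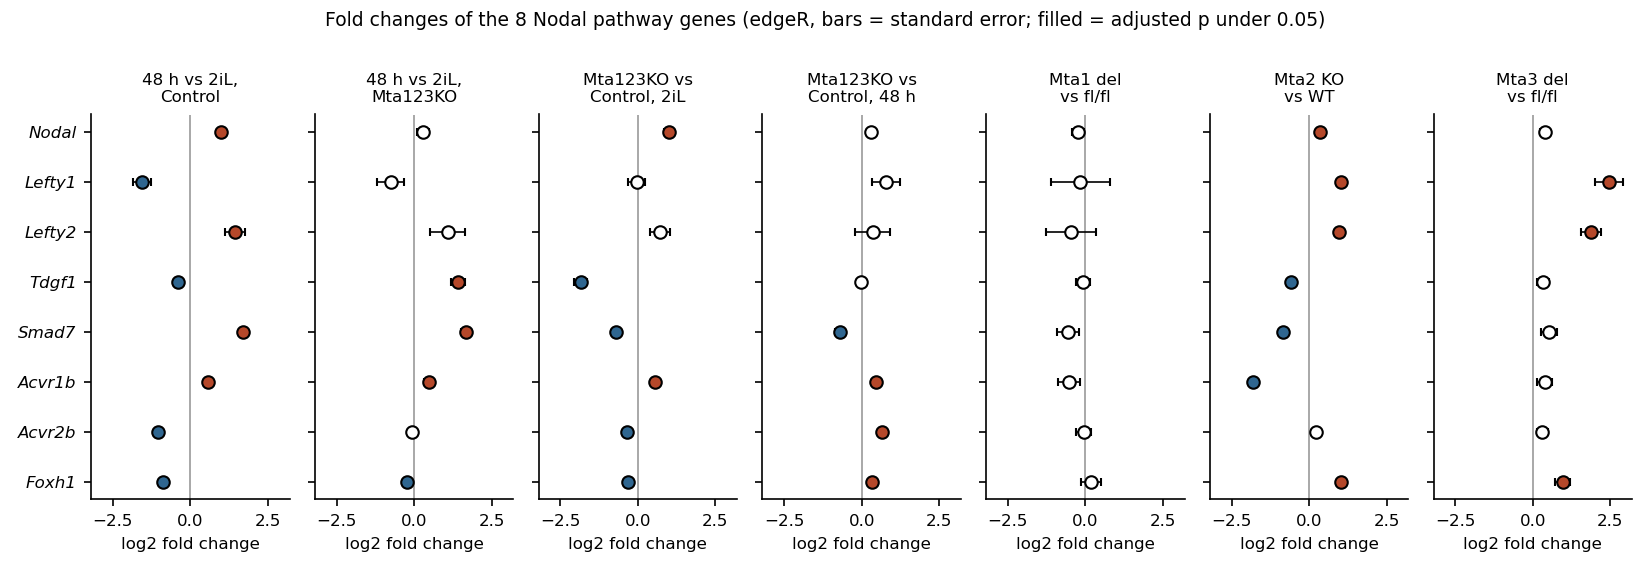
Log2 fold changes (x axis, first group over second) of the 8 genes in 7 comparisons, with bars of 1 standard error; filled symbols have an adjusted p under 0.05 in edgeR, red higher and blue lower. Smad7 lies at -0.71 in both comparisons of Mta123KO with Control, and Acvr1b lies at 0.56 in Mta123KO under the 2iL label and at -1.81 in Mta2_KO.

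Single mutants were compared with their own parent or wild-type line, which asks what the loss of 1 MTA protein does in self-renewing cells. For Mta2_KO, which came from 1 primary line and was not set beside its parent, loss of Mta2 and other differences between lines cannot be told apart. Its p-values measure spread between libraries and not between lines. In Mta1_del_del none of the 8 genes was called, beside 0% of the 14561 genes tested in either direction. In edgeR 50 genes had an unadjusted p under 0.05, none of them among the 8, and DESeq2 called 0 genes with 88 at that level. The edgeR fit did not pair libraries, although same-numbered libraries of the Mta1 groups correlated at 0.524 to 0.715. Differences that same-numbered libraries have in common thus counted as spread in this fit. With replicate number as a block, none of the 8 was called either. The lack of calls in these fits cannot show that loss of Mta1 leaves these genes unchanged. In Mta2_KO 7 of 8 were called, 4 higher (Nodal, Lefty1, Lefty2 and Foxh1) and 3 lower (Tdgf1, Smad7 and Acvr1b), beside 23.5% and 24.3% of 15602 genes. In Mta3_del_del 3 were called, all higher (Lefty1, Lefty2 and Foxh1), and 0 lower, beside 8.32% and 7.84% of 15522 genes.

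**Figure D4:**
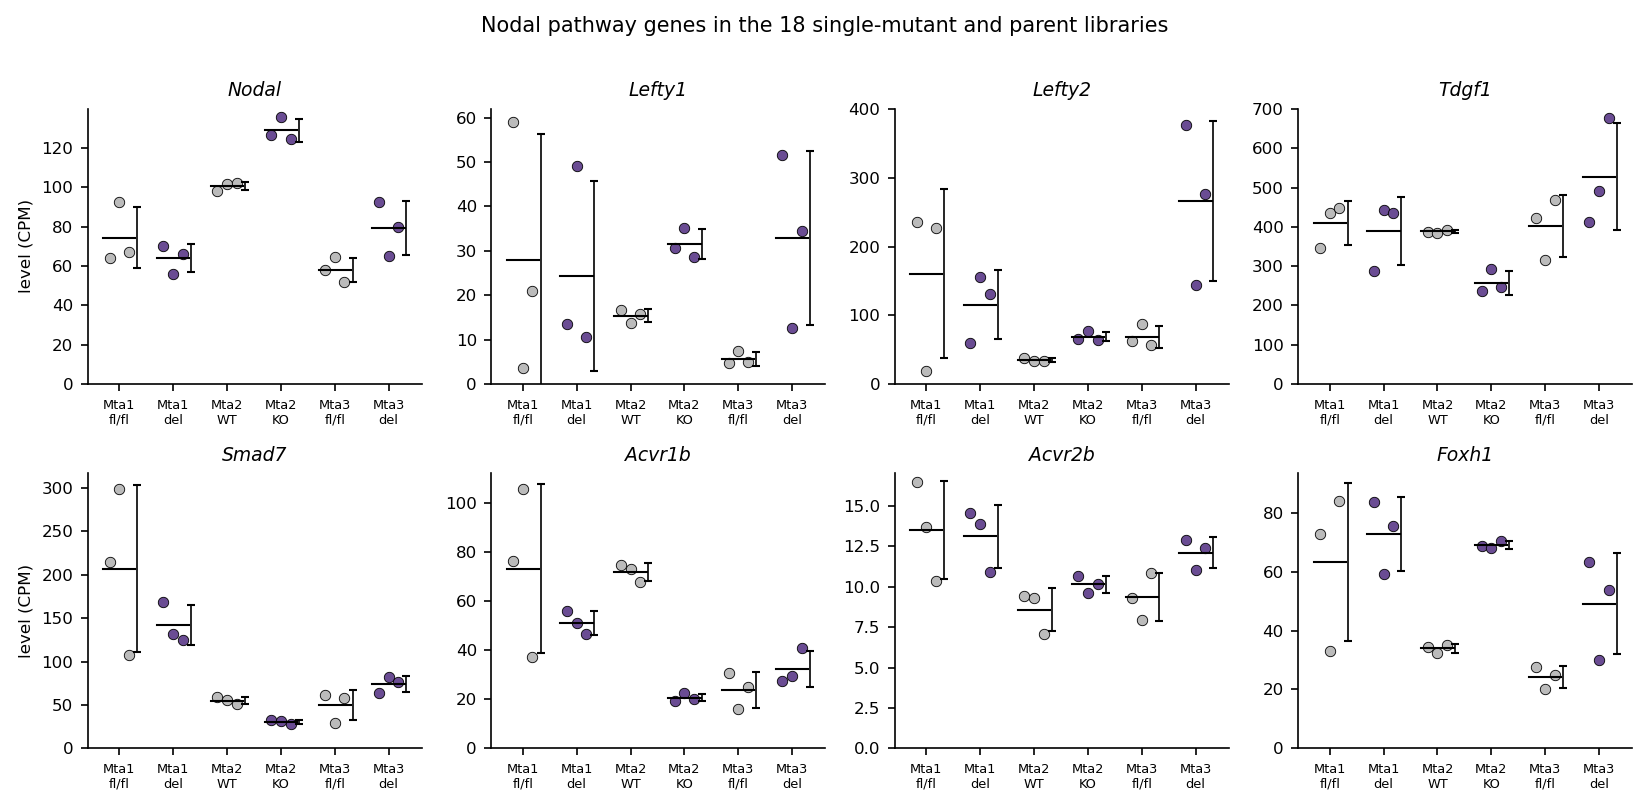
Levels in CPM (y axis, from 0) of the 8 genes in the 18 libraries of the second set, 3 per group, with parents or wild type in grey, mutants in purple, horizontal bars for means and error bars for 1 SD. Mta2_WT and Mta2_KO libraries lie close together within each group, whereas the Lefty genes of the Mta1 groups spread over most of the axis.

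Nodal in Mta2_KO stood at 127, 136 and 124 CPM against 98.2, 102 and 102 CPM in Mta2_WT, and the groups did not overlap (log2 fold change 0.35, standard error 0.05, adjusted p = 0.000190). Tdgf1 stood at 236, 292 and 246 CPM against 388, 386 and 391 CPM, again apart (-0.60, standard error 0.08, adjusted p = 0.000204). Both went in the direction they took in Mta123KO under the 2iL label, where the log2 fold changes were 1.0 and -1.85. Under the 48 h label, whose libraries are closer in naive markers to the second set, neither was called, at 0.31 (adjusted p = 0.0997) and -0.03 (adjusted p = 0.823). The difference between the mutants was not tested because the sets were sequenced and counted separately.

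Acvr1b gave the largest of the 8 changes in Mta2_KO. It was measured at 19.5, 22.4 and 20.2 CPM in Mta2_KO and 74.9, 73.1 and 68.1 CPM in Mta2_WT, so that the mutant libraries lay far below (log2 fold change -1.81, standard error 0.07, adjusted p = 5.07e-08). This receptor was higher, not lower, in Mta123KO under both labels, a contrast between sets that was not tested. Acvr2b stood at 9.61 to 10.7 CPM against 7.07 to 9.41 CPM, a difference of 0.23 that did not pass (standard error 0.12, adjusted p = 0.146). Foxh1 was 2.02-fold higher, at 68.6, 67.9 and 70.5 CPM against 34.3, 32.3 and 35.2 CPM (1.02, standard error 0.05, adjusted p = 3.03e-07).

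Of the inhibitors, both Lefty genes rose and Smad7 fell in Mta2_KO. Lefty1 was at 30.5, 35.2 and 28.6 CPM against 16.7, 13.7 and 15.8 CPM in wild type (log2 fold change 1.02, standard error 0.10, adjusted p = 3.17e-05). Lefty2 was at 65.9, 77.1 and 64.0 CPM against 37.7, 34.1 and 32.9 CPM (0.98, standard error 0.08, adjusted p = 1.08e-05). Smad7 was at 33.01, 31.1 and 28.1 CPM against 58.8, 55.6 and 50.5 CPM (-0.84, standard error 0.08, adjusted p = 1.89e-05). None of these groups overlapped. When the spread was estimated from all 18 libraries instead, the calls of Acvr1b and Foxh1 remained and the other 5 were lost at fold changes of the same direction (adjusted p 0.0522 to 0.382).

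In Mta3_del_del the Lefty genes rose most. Lefty1 was at 51.6, 12.5 and 34.4 CPM against 4.68, 7.43 and 4.88 CPM in Mta3_flox_flox, and Lefty2 at 377, 145 and 277 CPM against 62.5, 86.9 and 56.5 CPM. Every mutant library was above every parental one, and replicate 2 was the lowest of the mutants in both genes. The log2 fold changes were 2.45 for Lefty1 (standard error 0.45, adjusted p = 0.0201) and 1.88 for Lefty2 (standard error 0.31, adjusted p = 0.0174). Foxh1, at 63.4, 30.1 and 53.9 CPM against 27.5, 20.3 and 24.8 CPM, was higher by 0.96 (standard error 0.24, adjusted p = 0.0352). Without Mta3_del_del replicate 1 none of the 3 was called, at 1.98, 1.57 and 0.75 (adjusted p 0.0842, 0.0769 and 0.130), and 3 of all genes tested were. Foxh1 was also lost without replicate 3 of the mutant or any 1 parental library (adjusted p 0.0645 to 0.106), and Lefty1 without replicate 3 of either genotype (adjusted p 0.0504 and 0.0529).

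The other members in Mta3_del_del did not pass. Nodal stood at 92.6, 65.1 and 79.8 CPM against 58.1, 64.3 and 52.1 CPM, apart by a narrow margin (log2 fold change 0.38, standard error 0.14, adjusted p = 0.0949), and was called without Mta3_del_del replicate 2, at 0.50 (adjusted p = 0.0327). Tdgf1, Smad7, Acvr1b and Acvr2b gave differences of 0.31 to 0.52 with adjusted p of 0.162 to 0.269.

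In the Mta1 groups the Lefty genes varied more within a genotype than between genotypes. Lefty1 was at 13.6, 49.05 and 10.5 CPM in Mta1_del_del and at 59.0, 3.50 and 20.9 CPM in Mta1_flox_flox. Lefty2 was at 59.8, 156 and 131 CPM and at 235, 19.2 and 228 CPM. Replicate 2 was the lowest parental and the highest mutant library for both genes, so same-numbered libraries lay far apart in opposite directions. The log2 fold changes, -0.17 for Lefty1 (standard error 0.95) and -0.46 for Lefty2 (standard error 0.80), were smaller than their errors. The other 6 genes gave log2 fold changes of -0.56 to 0.20, all with an adjusted p of 1.

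The rest of the pathway was described by 37 further genes in lists of ligands, receptors, Smads, partners, inhibitors, convertases and targets. In Mta123KO against Control labelled 2iL, 32 of the 37 were tested, 13 were higher and 7 lower (27.1% and 24.2% of all genes were), with a median log2 fold change of 0.21 beside 0.01 over all genes and -0.18 over the 8 members. Under the 48 h label 15 of 33 were higher and 4 lower (26.6% and 23.4% of all genes), with a median of 0.34 beside 0.01 over all genes and 0.35 over the 8. With culture, 14 of 32 were higher and 10 lower in Control (29.5% and 29.0% of all genes), and 7 of 33 higher and 4 lower in Mta123KO (12.4% and 10% of all genes), with medians of -0.03 and -0.02 beside 0.01 and 0.00 over all genes. The 8 members had medians of 0.08 and 0.37 in these comparisons. In the interaction 5 of 33 were called higher and 7 lower, beside 12.5% and 10.6% of all genes.

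Among receptors and Smads, the type II TGF-beta receptor Tgfbr2 rose in Mta123KO under both labels, from 0.536 ± 0.161 to 6.02 ± 4.07 CPM labelled 2iL and from 3.24 ± 0.899 to 6.75 ± 1.58 CPM labelled 48 h (log2 fold changes 3.51 and 1.07, adjusted p = 0.000732 and 0.00510). Smad3, the transducer, rose from 32.1 ± 2.85 to 71.3 ± 15.6 CPM and from 30.4 ± 5.64 to 62.7 ± 5.31 CPM (1.17 and 1.05, adjusted p = 0.000250 and 0.000209). Of the 3 transducers Smad2, Smad3 and Smad4, 2 were higher in Mta123KO under the 2iL label and 3 under the 48 h label, and none was lower.

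Other ligands moved in both directions. Tgfb1 and Tgfb2 rose under both labels, Tgfb2 from 0.218 ± 0.105 to 3.10 ± 1.96 CPM labelled 2iL (3.83, adjusted p = 0.000621) and Tgfb1 from 0.774 ± 0.199 to 2.92 ± 0.447 CPM labelled 48 h (1.91, adjusted p = 0.000136). Inhbb, which encodes the beta B subunit of activin and inhibin, fell under the 48 h label from 9.58 ± 4.03 to 0.579 ± 0.0773 CPM (-4.03, standard error 0.33, adjusted p = 2.12e-05). Furin, a convertase that cleaves the Nodal precursor, rose under the 2iL label from 18.1 ± 2.41 to 40.6 ± 19.0 CPM (1.19, adjusted p = 0.0104).

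Genes that the pathway induces did not move as one. Under the 2iL label Eomes, a T-box factor, and Pmepa1, a feedback inhibitor, rose in Mta123KO by 1.86 and 1.93 (adjusted p = 1.59e-05 and 0.000115), whereas the corepressors Skil and Tgif1 fell by 1.26 and 1.25 (adjusted p = 2.94e-06 and 0.000153). Under the 48 h label the homeobox gene Gsc fell from 4.49 ± 0.998 to 1.10 ± 0.473 CPM (-2.01, adjusted p = 0.000766), Pmepa1 rose by 1.02 (adjusted p = 0.00111) and Fstl3, a follistatin-like inhibitor, rose by 1.47 (adjusted p = 0.0334). In the list of 11 targets, which includes Nodal, Lefty1, Lefty2 and Smad7, 3 rose and 3 fell of the 9 tested under the 2iL label, and 3 rose and 2 fell of the 10 tested under the 48 h label.

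With culture in Control, Gsc, Inhbb, Tgfbr2, Pcsk6, Tgfb2 and Pmepa1 were higher in libraries labelled 48 h and Fstl3, Skil and Gdf1 lower. Pcsk6, another convertase of the Nodal precursor, was at 90.4 ± 7.39 CPM labelled 48 h and 16.2 ± 1.48 CPM labelled 2iL (log2 fold change 2.50, adjusted p = 3.42e-09), and Skil at 46.0 ± 7.89 and 189 ± 3.85 CPM (-2.02, adjusted p = 5.69e-08). Gdf1 overlaps Cers1, and its reads may belong to either. In Mta123KO the culture difference was called for Gsc (3.22), Fst (1.42), Tgfb1 (1.36), Pcsk6 (1.27) and Pmepa1 (1.17), all higher under the 48 h label. The interaction was called with a log2 value above 1 for genes including Skil (1.78) and Gdf1 (1.23) and below -1 for Inhbb (-3.10), Gsc (-2.76), Tgfb2 (-2.71), Tgfbr2 (-2.43), Eomes (-2.36) and Pcsk6 (-1.21).

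In the single mutants, 11 of 33 further pathway genes were higher and 10 lower in Mta2_KO (23.5% and 24.3% of all genes), 2 higher and 0 lower of 33 in Mta3_del_del (8.32% and 7.84% of all genes), and 0 of 30 called in Mta1_del_del, with medians of 0.08, 0.12 and -0.04 beside 0.00, -0.01 and 0.00 over all genes. The 8 members had medians of 0.29, 0.45 and -0.20. In Mta2_KO the activin antagonist Fst fell from 9.50 ± 0.264 to 1.09 ± 0.334 CPM (-3.14, adjusted p = 7.89e-07), and Tgfbr2 and Inhbb fell by 1.53 and 1.24 (adjusted p = 8.42e-05 and 3.01e-05). Smad3 rose from 18.7 ± 0.383 to 37.7 ± 1.52 CPM (1.0, adjusted p = 9.82e-07) and Inha by 1.11 (adjusted p = 0.0146).

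**Figure D5:**
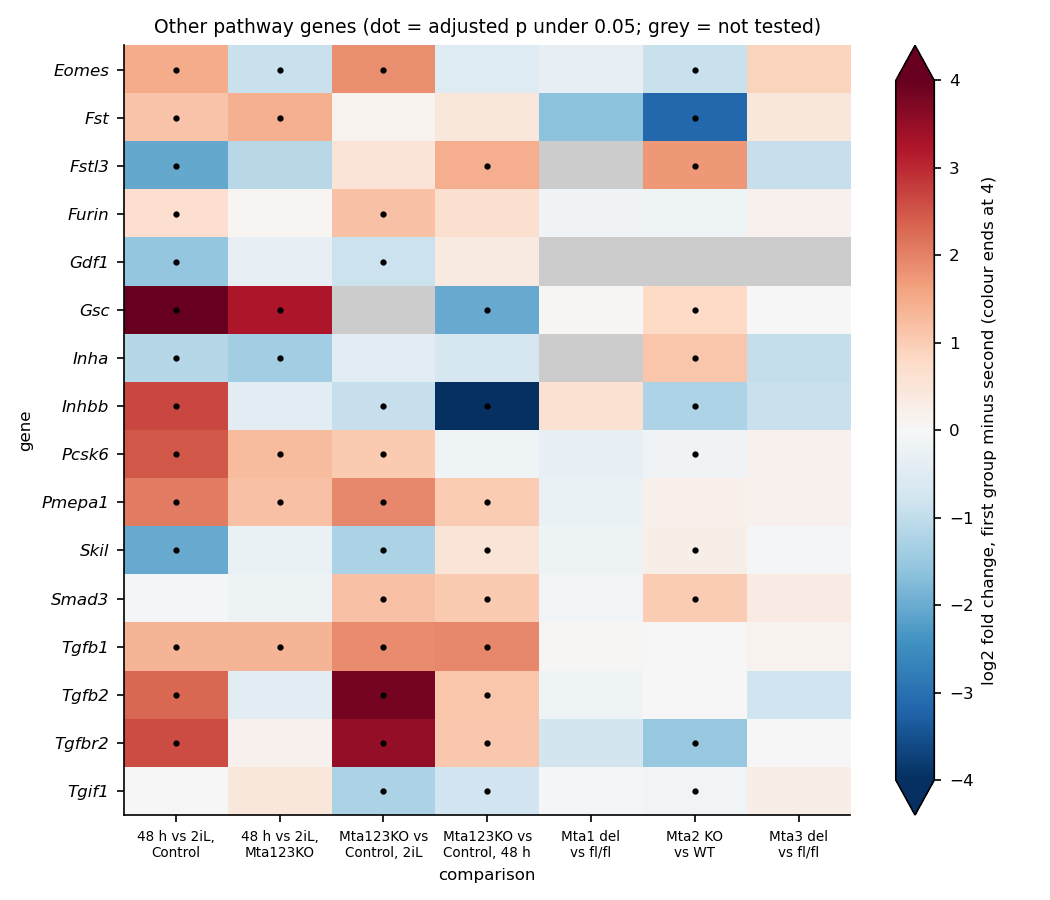
Log2 fold changes (colour, ending at 4 in either direction) of 16 further pathway genes (rows) in 7 comparisons (columns); dots mark an adjusted p under 0.05 and grey cells genes not tested. Tgfb1, Tgfb2, Tgfbr2, Smad3 and Pmepa1 are red with a dot in both comparisons of Mta123KO with Control.

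Genes with profiles most like those of 4 members were ranked over the 16 libraries of the first set by the root mean square difference of centred log2 CPM, among 17067 other genes with a mean of at least 1 CPM. For Nodal they were Ehd1, Zrsr1 and Prrc2b, with differences of 0.137 to 0.140, beside the spread of Nodal itself of 0.520. The first for Tdgf1 was its pseudogene Tdgf1-ps1 at 0.170, then Klf13 and 1700001L05Rik at 0.310 and 0.320, beside a spread of 0.763. For Lefty1 they were L1td1, Ppp4r4 and Pmaip1 at 0.463 to 0.482 and for Lefty2 Tapbp, Copz2 and Gm19412 at 0.462 to 0.477, beside spreads of 0.880 and 0.915, so neither Lefty gene was among the 3 nearest to the other.

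Markers of other cell types differed with genotype and culture in the first set, and their part in the differences above was not tested. The 6 trophoblast markers (Cdx2, Elf5, Gata3, Tfap2c, Krt7 and Hand1) summed to 3.46 to 9.20 CPM in Control and 55.5 to 169 CPM in Mta123KO labelled 2iL, where all 6 were called higher, and to 64.6 to 86.7 and 62.0 to 168 CPM labelled 48 h. Under the 48 h label 3 of the 5 tested were called higher and 1 lower. The Mta123KO lines split, with line 1 at 169 and 166 CPM and line 2 at 55.5 and 60.5 CPM labelled 2iL. Labelled 48 h, line 1 was at 157 and 168 CPM and line 2 at 62.0 and 70.4 CPM. The 7 primitive endoderm markers summed to 8.87 to 22.6 and 16.8 to 28.2 CPM labelled 2iL and to 4.65 to 5.76 and 18.7 to 21.7 CPM labelled 48 h. The 5 early neural markers summed to 76.1 to 98.1 and 33.5 to 44.2 CPM labelled 2iL and to 24.7 to 29.2 and 31.5 to 39.8 CPM labelled 48 h, and the 5 fibroblast markers to at most 7.67 CPM in any of the 16 libraries. No marker of these lists was at 0 in all libraries of a group. The naive markers in Mta123KO were above Control under the 2iL label and below it under the 48 h label, with 5 of 8 called higher and 6 of 8 called lower. The formative or primed markers summed to 557 to 800 CPM in Mta123KO labelled 2iL, below the 1242 to 1824 CPM of Control, with 4 of 6 called lower and 1 higher, and to 170 to 286 CPM against 105 to 121 CPM labelled 48 h, with 2 of 5 called higher and 1 lower. The 4 general pluripotency markers (Pou5f1, Sox2, Sall4 and Utf1) summed to 780 to 1175 CPM in the 16 libraries and 1104 to 1723 CPM in the other 18.

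Markers differed with genotype in the second set too, and their part in the differences of the 8 genes there was likewise not tested. In Mta2_KO the naive markers summed to 3518 to 3642 CPM against 4768 to 5078 CPM in Mta2_WT, with 6 of 8 called lower and 1 higher. The trophoblast markers summed to 141 to 148 CPM against 75.2 to 83.5 CPM, with 2 of 5 tested called higher and 2 lower, and the early neural markers to 59.6 to 67.2 CPM against 21.9 to 31.9 CPM, with 2 of 5 called in each direction. In Mta3_del_del the fibroblast markers summed to 5.66 to 6.56 CPM against 11.6 to 58.6 CPM in the parent, with 2 of 4 tested called lower, and 2 of 5 early neural markers were called lower. In the Mta1 comparison no marker of these lists was called.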

How the data were processed

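RNA-seq libraries of mouse ES cells were analysed from the gene counts deposited by the authors, which are whole numbers of reads per gene with no normalization. The submitters' processing notes name Trim Galore, TopHat2 and featureCounts with the GRCm38 (mm10) build, and the study's methods name Ensembl as the source of the gene annotation. Library totals ran from 37855790 to 57602285 reads in the 16 Control and Mta123KO libraries, whose files also hold 92 spike-in RNAs, and from 13105820 to 40613585 in the 18 single-mutant and parent libraries. Spike-ins were left out of totals and tests. Groups followed the labels. For the culture of the first set the labels and the names of the files disagree.

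Each comparison was fitted on its own libraries in edgeR 4.0.16 (R 4.3.3) with filterByExpr, TMM factors and the quasi-likelihood F test, and p-values were adjusted by Benjamini-Hochberg over all genes tested. The interaction was fitted on all 16 libraries of its set. Standard errors are the log2 fold change divided by the square root of F. Levels are TMM-scaled CPM within a set, given as mean ± SD over 4 or 3 libraries. The fits were tested on simulated counts first.

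The members and the gene lists were chosen with earlier results of these data known. All 8 members were named, and other pathway genes were named where they were called, changed by 1 or more on the log2 scale and reached 1 CPM on average in the higher of the groups, up to 10 per comparison, apart from 1 gene that is not reported here. Whether replicate numbers pair libraries was checked by correlating deviations from group means over genes. In the culture comparisons same-numbered libraries share a line and correlated at 0.347 to 0.686. Between the Mta1 groups, whose sample titles name no line, they correlated at 0.524 to 0.715. Between genotypes in the other comparisons, most libraries did not correlate best with their own number.

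Alternatives were DESeq2 1.42.0 with its own size factors, spike-in scaling, no filter on low counts and a replicate block. Others were 1 fit of all libraries of a set, libraries of a line summed, and leaving out each library or line. A block on line for the culture comparisons was chosen after seeing the data. GENCODE and RefSeq tables gave positions and sequences, and figures were drawn in Python 3.11.15 with matplotlib 3.10.9.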

Additional observations from a re-analysis of the deposited data

Results flagged for a closer look

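The change with culture, 48 h over 2iL as labelled, differed between Mta123KO and Control by edgeR's interaction term for 4 of the 8 genes. The log2 difference, Mta123KO minus Control, was 1.83 for Tdgf1, 0.99 for Acvr2b, 0.68 for Foxh1 and -0.68 for Nodal. Exchanging the culture labels would turn all 4 signs.

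Both Mta123KO lines moved in opposite directions in 2 cases, and neither difference was tested. In the comparison with Control labelled 48 h, both libraries of line 1 lay on one side of the Control mean for Lefty2 and both of line 2 on the other, 1.93 apart on the log2 scale. The split is not particular to Mta123KO, since the Control lines lay either side of that mean in the same order, at 69.8 and 31.0 CPM. For the culture change of Acvr2b in Mta123KO, the lines likewise went opposite ways, 0.36 apart. No library stood out from the other 3 of its group by Dixon's test in any of the 32 groups examined, of which chance would give about 1 in 20.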

How the results depend on the processing

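Over all alternatives, 909 log2 fold changes of single members kept their direction and side of the threshold, 21 gained a call and 70 lost one, and no call turned its sign. The number of the 8 genes called moved as follows; causes were not tested. For Mta123KO against Control labelled 48 h it was 4, 1 with libraries of a line summed, 1 with spike-in scaling and 7 without Mta123KO line 2, and leaving out 1 library each gave 3 to 6. For culture in Mta123KO it was 4, then 2 without the filter, 0 with libraries of a line summed, 2 with spike-in scaling, 6 with the replicate block or the line block, and 2 to 3 on leaving out 1 library. The interaction kept 2 of 4 with lines summed and 2 with spike-ins, Mta2_KO 2 of 7 in 1 fit of all 18 libraries, and Mta3_del_del gave 0 to 4 on leaving out 1 library.

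Among all genes, counts of calls moved over 1.5 times with lines summed from 11115 to 3758 (genotype, 2iL label), from 10548 to 4085 (48 h label), from 4817 to 0 (culture in Mta123KO) and from 5306 to 710 (interaction). With spike-ins they were 2795 for culture in Mta123KO and 3364 for the interaction. The replicate block gave 9144 and 8613 for these, and the line block 10252 for the former. Without Mta123KO line 1 or 2, culture gave 8998 and 10019, and without Control line 1 or 2 the interaction gave 2344 and 2963. Mta2_KO went from 7460 to 2622 in 1 fit of 18 libraries. Mta3_del_del went from 2508 to 3, 4131 and 375 without mutant replicates 1, 2 and 3, and to 964, 443 and 582 without parental replicates 1, 2 and 3.

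Spike-in scaling moved the median log2 fold change of all genes to -0.18 for genotype under the 48 h label, 0.18 for culture in Control and -0.22 for the interaction. The share of calls that were higher went from 50.4% to 62.1% for culture in Control and from 54.3% to 41.1% for the interaction. Between Control and Mta123KO, same-numbered libraries correlated at -0.286 to 0.0415 and none correlated best with its own number. Between the Mta2 groups and between the Mta3 groups they correlated at -0.205 to 0.377, with 1 of 3 best with its own number in each. Between Control and Mta123KO the replicate block added a call for Lefty1 under the 48 h label, 0.65 (adjusted p = 0.0288), and beyond the values given it changed no other call of the 8 genes. Lefty1 in the single-mutant set, at as few as 48 reads, is the value that depth limits most.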
